A study of Drosophila melanogaster with 76 samples.

Results

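The DNA-binding domain of Zelda (Zld-DBD), expressed in Drosophila S2 cells, was followed from 100 to 400 µM copper sulfate through the regions that the authors' peak caller reported at each dose. All 4391 regions at 100 µM and 5461 regions at 400 µM were taken, 9852 of the 179969 regions in the 31 peak lists of the series. A 400 µM region that shared at least 1 bp with a 100 µM region was called kept, a 400 µM region with no such partner was called gained, and a 100 µM region with no partner at 400 µM was called lost. Each class was then divided by whether the region overlapped the list that the same anti-Zld antibody gave in wild-type S2 cells.

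The study profiled transcription factors expressed from copper-inducible constructs by chromatin immunoprecipitation and sequencing (ChIP-seq) in 76 samples. Both domain groups were S2 cells carrying the S2-Zld-DBD construct, precipitated with anti-Zld, and cells were harvested 48 h after copper was added. Wild-type cells (S2-WT) carried no construct and received 1000 µM copper sulfate, more than either domain group. The other main lists were a further anti-Zld list of the domain line at 100 µM and the full-length Zelda line (S2-Zld) at 0 µM. At 0 µM the construct was not induced. Separate comparisons used full-length Zelda lists at 500 to 1500 µM and lists of the Grainy head DNA-binding domain at 20 and 80 µM. An alternative setting added the wild-type lists of anti-Grh (100 µM), anti-Twi and anti-HA (both 40 µM). Counts of lists holding a region used every list of the series, among them full-length Zelda lists labelled DMSO and taz.

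Zelda is a zinc-finger protein of the early fly embryo that binds the CAGGTA family of motifs and, as a pioneer factor, reaches them in closed chromatin before the zygotic genome is switched on. Its DNA-binding domain is the cluster of zinc fingers near the carboxyl end, and the domain construct lacks the rest of the protein. S2 cells come from late embryos and have properties of blood cells. They do not normally make Zelda. A peak list measures where protein is crosslinked to DNA and not expression, which leaves the cell type unchecked here. Neither can a peak list tell binding in fewer cells from weaker binding in each cell.

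Each list pools the 2 libraries of its group, so there was 1 list a dose, no test between doses was possible, and intervals on shares are 95% exact Clopper-Pearson intervals that cover counting error only. A peak's fold is the authors' enrichment at its summit and ranks regions within 1 list, and folds from different lists printed side by side do not compare binding strength. The 100 µM list had a median fold of 2.56 (range 1.47 to 18.5), a median width of 513 bp and 2.62 Mb covered. The 400 µM list had a median fold of 2.09 (range 1.18 to 10.2), a median width of 414 bp and 2.69 Mb covered. The higher dose thus came with more, narrower regions over a similar length of genome. The lists also differed in ways other than copper: 47.1% of the caller's peak numbers remained in the 100 µM list and 59.6% in the 400 µM list, and the lowest local background that the folds and p-values imply (1st percentile) was 20.5 reads against 35.0, the latter on an unknown scale. Depth and filtering on 1 side and copper dose on the other cannot be told apart.

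Most regions of the higher dose were already called at the lower dose. Of the 5461 regions at 400 µM, 3759 were kept (68.8%, interval 67.6 to 70.1%) and 1702 were gained (31.2%, 29.9 to 32.4%). Of the 4391 regions at 100 µM, 746 were lost (17.0%, 15.9 to 18.1%). Exchange ran in both directions. With the 400 µM list shortened by fold to 4391 regions, 1473 were gained and 1491 lost. Lists of equal length must give near-equal counts, so this setting cannot say why gained regions exceeded lost ones in the full lists.

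Regions outside the wild-type list made up a larger share of the gained class than of the kept class. Among kept regions 2829 lay inside the wild-type list and 930 outside (24.7%, 23.4 to 26.2%). Among gained regions 1007 lay inside and 695 outside (40.8%, 38.5 to 43.2%). The lost class held 551 inside and 195 outside (26.1%, 23.0 to 29.4%), near the kept share at this setting but below it with regions at or above their list's median fold (21.2% against 46.2%) and above it with the other 100 µM list (66.8% against 35.8%). Counted by list, 74.1% of the 100 µM regions and 70.2% of the 400 µM regions overlapped wild type by an overlap of at least 1 bp. That majority depended on the overlap rule: with an overlap of 50% of both regions, 55.8% of the 100 µM and 67.3% of the 400 µM regions lay outside wild type, with summits within 250 bp 46.4% and 52.7%, and with wild-type regions at or above their median fold 53.3% and 62.1%.

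**Figure D1:**
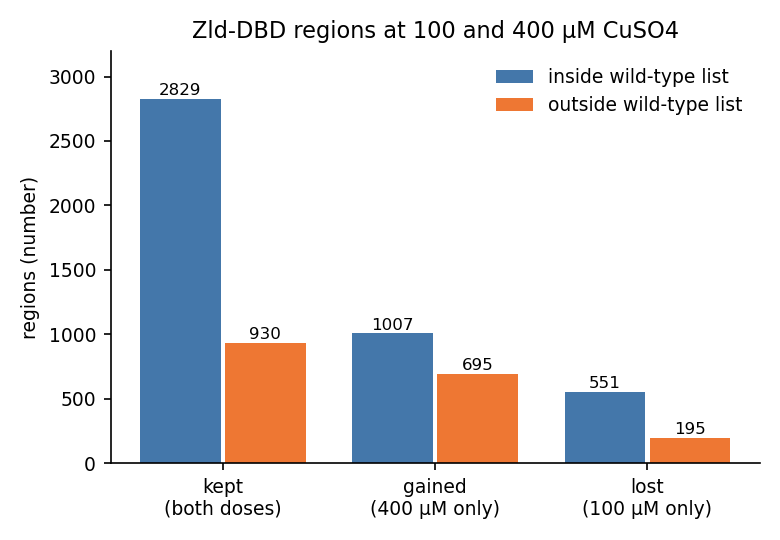
Number of Zld-DBD regions kept, gained and lost between 100 and 400 µM copper sulfate, inside and outside the wild-type anti-Zld list. Kept regions number 2829 inside and 930 outside, gained 1007 and 695, lost 551 and 195.

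A further list of the same line, antibody and dose of 100 µM (called the repeat here) gives the only view of spread between lists at a dose, though the labels do not say whether it came from a separate experiment or batch. It kept 17.9% of its peak numbers, fewer than the 100 and 400 µM lists, and listed 1302 regions, of which 66.7% (64.1 to 69.3%) overlapped the 100 µM list and 74.6% (72.1 to 76.9%) overlapped the 400 µM list. The repeat at 100 µM thus shared more regions with the 400 µM list than with the list of its own dose, 162 with 400 µM only against 60 with 100 µM only. The 400 µM list also has more regions to overlap, 5461 against 4391, and how far this accounts for the order was not tested. With the repeat in place of the 100 µM list, 19.5% of the 400 µM regions were kept, where its 1302 regions come to 23.8% of the 5461 and so set about the most that could be kept, and the order outside wild type turned over, with 35.8% of kept and 28.3% of gained regions outside. The gained class was then most of the 400 µM list (4398 of 5461 regions), which itself had 29.8% outside wild type. The gained share outside wild type thus differed with the 100 µM list used.

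Gained regions were called less often than kept regions in that repeat, at 11.6% against 23.0%, and lost regions less often again, at 8.04%. Of the kept regions outside wild type, 29.9% were in the repeat list. For the gained and lost regions outside wild type the shares were 14.8% and 17.9%.

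Kept regions overlap by definition, so the nearness of their summits at the 2 doses is partly set by that choice. The highest summits at the 2 doses lay a median of 12 bp apart, and 87.9% lay within 100 bp of each other, 86.0% inside wild type and 94.0% outside. The median kept region was 0.928 times as wide at 400 µM as at 100 µM. Across the 3759 kept regions the folds of the 2 lists ranked alike (Spearman rank correlation 0.73, 0.65 inside and 0.76 outside wild type), a description only, since regions are not independent and the points share libraries and genome background.

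**Figure D2:**
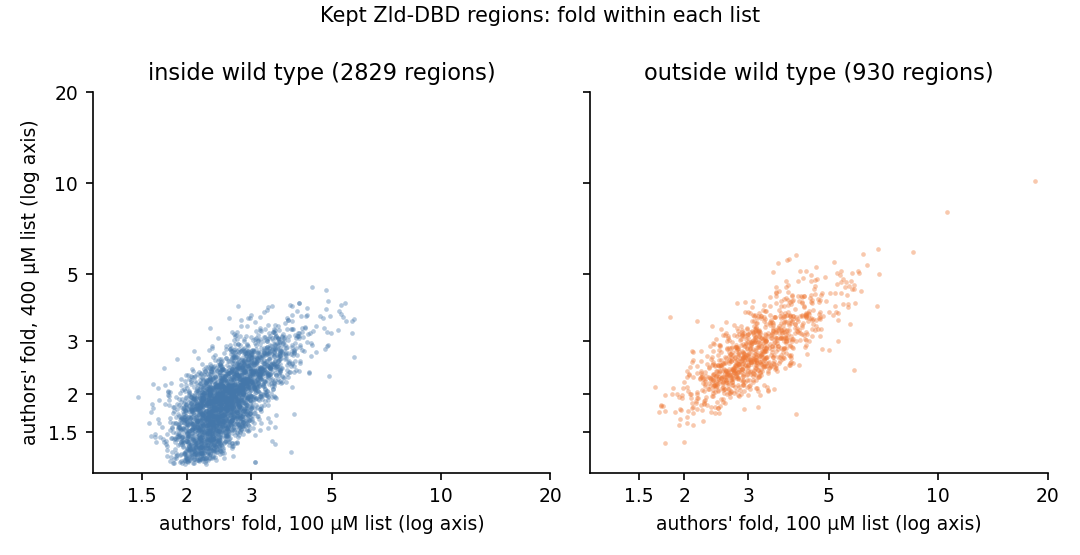
Authors' fold of each kept Zld-DBD region in the 100 µM list (x, log axis) and the 400 µM list (y, log axis), 1 point a region, left inside and right outside the wild-type list. Regions outside reach higher folds, up to 18.5 and 10.2, the region in zld.

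Within the 400 µM list, regions outside wild type lay higher in fold than regions inside. Kept regions had a median fold of 2.73 outside and 1.93 inside, and gained regions 2.40 outside and 1.92 inside. The share outside wild type in 5 equal bins of the 400 µM list by fold went from 2.10% in the lowest through 10.6%, 25.7% and 43.5% to 66.8% in the highest. Outside wild type, the share kept also climbed with fold, from 38.2% in the lowest bin to 84.6% in the highest. Inside wild type no such climb was seen, with 82.4% kept in the lowest bin, 66.8% in the middle one and 83.4% in the highest.

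Read from the lower dose, loss was concentrated among weak regions. In the lowest of 5 equal bins of the 100 µM list by fold 55.5% were kept, against 82.2% in the second and 93.1% in the highest. Inside wild type the lowest bin was kept at 50.8% and the highest at 97.4%. Lost regions had median folds of 2.06 inside and 2.68 outside, against 2.54 and 3.11 for kept regions at 100 µM.

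Regions gained inside wild type lay near gene ends. Either end of a protein-coding gene lay within 500 bp of the summit for 73.6% (70.7 to 76.3%) of them, against 40.7% (38.9 to 42.5%) of regions kept inside. Outside wild type the shares were 40.0% for gained and 25.1% for kept regions. Lost regions stood at 39.6% inside and 41.0% outside. The wild-type list itself had 57.2% of its summits near a gene end, the 100 µM list 37.6% and the 400 µM list 44.0%. Expressed the other way, 60.8% (58.6 to 63.0%) of the 400 µM regions inside wild type and near a gene end were kept, against 86.3% (84.7 to 87.8%) of those farther away. With the repeat as the 100 µM list the difference was not seen, at 49.4% (47.6 to 51.1%) of gained and 49.1% (45.3 to 52.9%) of kept regions inside wild type. That swap is a weak check, since it called 3154 regions inside wild type gained and 682 kept.

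**Figure D3:**
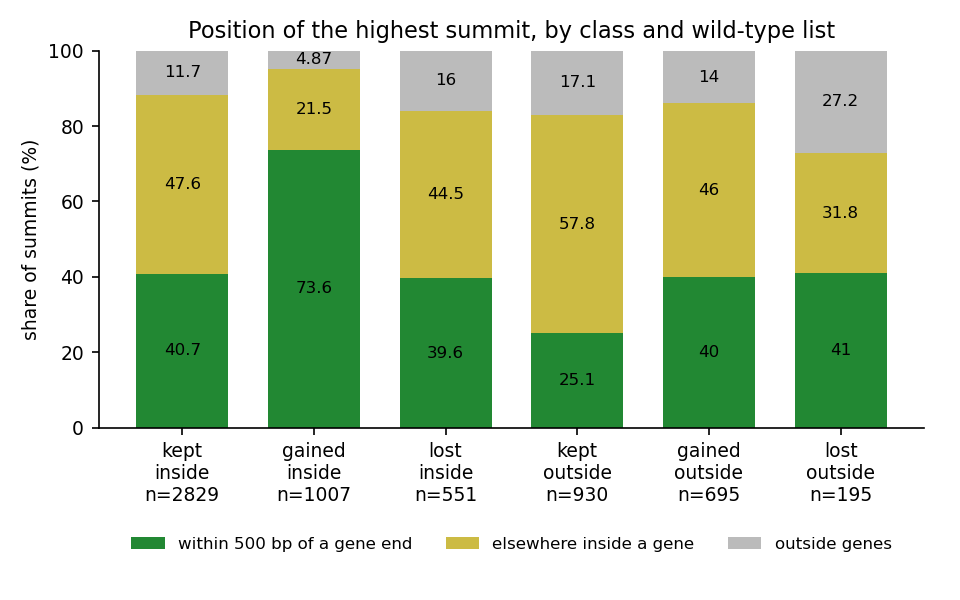
Position of the highest summit of each Zld-DBD region as a share of its class (y, percent), by class and by overlap with the wild-type list. Gained regions inside wild type have 73.6% of summits within 500 bp of a gene end, against 40.7% of kept regions inside.

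The X chromosome carried a larger share of gained than of kept or lost regions. It held 409 gained regions (24.0%, 22.0 to 26.1%), 623 kept regions (16.6%, 15.4 to 17.8%) and 92 lost regions (12.3%, 10.1 to 14.9%). Among summits near a gene end the X share was 22.8% of gained and 13.2% of kept regions, and elsewhere inside genes 29.8% and 20%. Outside genes it was 11.6% and 12.9%, with overlapping intervals. With the repeat as the 100 µM list, the X held 19.5% (18.3 to 20.7%) of gained and 16.4% (14.2 to 18.7%) of kept regions, also with overlapping intervals. The gained class was then most of the 400 µM list, 4398 of 5461 regions, so this is a weak check. The X share of the whole list was 16.0% at 100 µM, 18.9% at 400 µM, 16.7% in the repeat and 15.8% in wild type.

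Seen from the wild-type list, the 2 doses exchanged regions of different rank. The 5945 wild-type regions were divided into 5 bins of 1189 by their wild-type fold. In the highest bin, 19.5% (17.3 to 21.9%) were called at 100 µM only and 2.02% at 400 µM only, which is 232 against 24 regions. In the lowest bin the order was the opposite, 2.94% at 100 µM only and 16.1% at 400 µM only. Lost regions inside wild type had a median wild-type fold of 8.21, kept regions 4.51 and gained regions 3.45. In all, the 100 µM list held 33.6% of the lowest bin and 66.6% of the highest, the 400 µM list 46.7% and 49.1%, and the repeat at 100 µM 11.5% and 12%. The uninduced full-length line held 68.0% of the lowest bin and 52.6% of the highest. The rise in the share held, from the weakest to the strongest wild-type regions, was thus seen in the 100 µM list and not in the repeat of that dose.

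**Figure D4:**
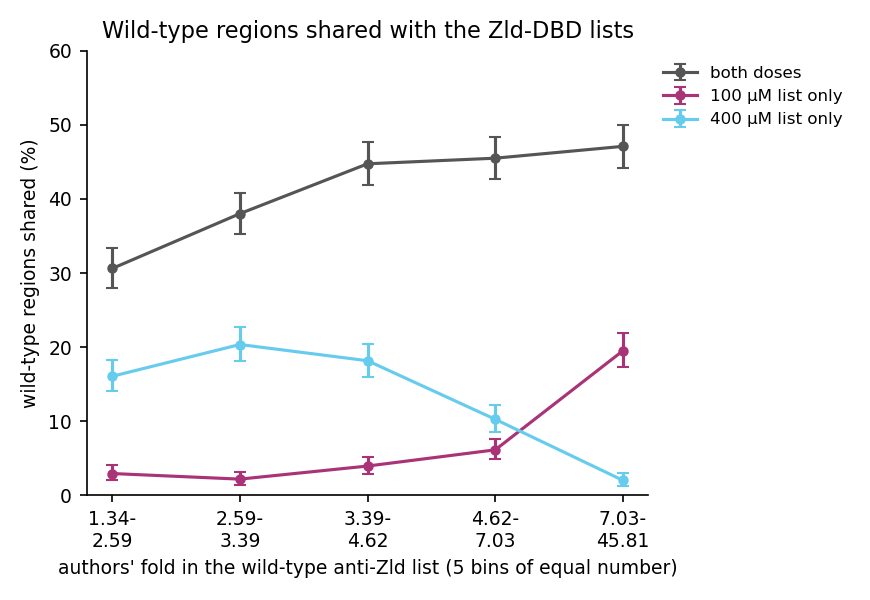
Share of wild-type anti-Zld regions (y, percent, with 95% exact intervals for counting error) also called in both Zld-DBD lists, at 100 µM only or at 400 µM only, by 5 equal bins of the authors' fold in the wild-type list (x). The 100 µM only share is 19.5% in the highest bin and the 400 µM only share 2.02%.

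The region of highest fold at both doses lay inside zld itself (chrX:19777688-19779068 at 400 µM; dm6, the build of the submitters' processing notes, serves for these coordinates). Its fold was 18.5 at 100 µM, 10.2 at 400 µM, 9.22 in the repeat and 10.3 in the uninduced full-length line, and it was absent from the wild-type list. The region was 1440, 1381 and 1452 bp wide in the 3 domain lists and 5055 bp wide in the full-length line. The construct's own DNA contains zld sequence, and whether the reads come from the construct or the chromosome was not tested.

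Next among the kept regions outside wild type stood Hsp70Bc, a heat-shock chaperone gene (chr3R:12511125-12511927), with a fold of 8.04 at 400 µM and 10.5 at 100 µM. The Hsp70 genes are near-identical copies, so which copy the reads came from is uncertain. The uninduced full-length line had the region at a fold of 9.91. Both leading domain regions were thus called in the full-length line without copper, as were 82.6% of all kept regions outside wild type.

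The other leading kept regions outside wild type fell at genes of several kinds. The region at drd (chrX:15136847-15137706) had folds of 5.84 at 400 µM and 6.20 at 100 µM. Slob, a binding partner of the Slowpoke potassium channel, had 5.79 and 4.07. Straw (stw), a laccase of cuticle tanning, had 5.62 and 3.89. Atf6, a transcription factor of the endoplasmic reticulum stress response, had 5.56 and 3.84 and was called in the repeat at 5.37. X11L, an adaptor of the amyloid precursor-like protein, had 5.47 and 5.17. The Ras GTPase-activating gene raskol had 5.34 and 6.38. The uncharacterised genes CG40006, CG46302 and CG12769 had 400 µM folds of 6.03, 5.93 and 5.46. The twelfth region lay 3752 bp from cubitus interruptus (ci), the transcription factor of Hedgehog signalling, on chromosome 4 (chr4:59879-60992), with folds of 5.27 and 4.60, and 21 of the 31 lists held it. Of these regions, all but those of Slob, X11L and raskol were in the repeat list as well, against 29.9% of all kept regions outside wild type.

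Gained regions outside wild type reached lower folds, from 5.05 downward. The first lay 2524 bp from Cht10, a chitinase gene (chr2L:22996787-22997585), and the repeat at 100 µM called it at 5.10. The region in discs large 1 (dlg1), a scaffold of septate junctions (chrX:11402968-11403247), had a fold of 4.12 and occurred in 2 of the 31 lists. The region by mGluR, a glutamate receptor gene on chromosome 4 (chr4:936328-936658), had 4.02 and was in the repeat at 4.57. Ptp10D, a receptor tyrosine phosphatase, had 4.02, Nipped-B, the cohesin loader, had 3.95 and Agpat1, an acyltransferase of glycerolipid synthesis, had 3.92. CG3198 (4.44), Rcd2 (4.22), CG2493 (4.12), CG10222 (4.08), CG1648 (4.06) and CG46312 (3.97) completed the leading 12. The regions by Cht10, CG2493, mGluR and Agpat1, all called gained, were thus present at 100 µM in the repeat. Of all gained regions outside wild type, 14.8% were in the repeat.

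Leading lost regions outside wild type were shared with the uninduced full-length line, as were 80.0% of all lost regions outside wild type. The first lay by Mitf, a regulator of lysosomal genes on chromosome 4 (chr4:1197905-1199037), with a fold of 5.19 at 100 µM, 4.68 in the repeat and 5.64 in the uninduced full-length line. Pex7, a peroxisomal import receptor, had 5.10, and tacc, a centrosomal protein gene, had 5.08. CG31637 had 4.79, the alpha-actinin gene Actn3 had 4.77 and the gustatory receptor gene Gr98d had 4.73. Utx, a histone H3K27 demethylase, had 4.51, and the zinc-finger gene charlatan (chn) had 4.48. All 8 of these regions were in the uninduced full-length list, near that general share. Those by Mitf, tacc, Gr98d and Utx were in the repeat list, against 17.9% of all lost regions outside wild type.

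Inside wild type, leading kept regions lay by Lint-1 (4.52 at 400 µM, 4.41 at 100 µM), 10841 bp from the Wnt ligand gene wg (4.07 and 4.89), by Ephrin, the ligand of the Eph receptor (4.01 and 5.44), and by the ankyrin gene Ank (4.00 and 4.07). Of the 5 leading gained regions inside, those by CG43229 (3.85), casein kinase CkIalpha (3.35), the dynein intermediate chain gene sw (3.30) and the SUMO protease gene Ulp1 (3.30) lay on the X chromosome, and the fifth by CG41099 (3.51) on 3R. The leading lost region inside lay by patched (ptc), the Hedgehog receptor, with a fold of 3.71 (chr2R:8665258-8665578). CG10232 (3.44), the glucuronyltransferase gene GlcAT-P (3.33), sip1 (3.29) and CG43389 (3.21) followed it.

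Many regions outside wild type were already called in the full-length line without copper. That list held 768 of the 930 kept regions outside wild type (82.6%), 415 of the 695 gained (59.7%) and 156 of the 195 lost (80.0%). Inside wild type it held 83.5% of kept, 75.3% of gained and 46.5% of lost regions. Being outside wild type is therefore not the same as needing copper, and no domain line at 0 µM was analysed here.

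Outside both the wild-type and the 0 µM lists there remained 162 kept, 280 gained and 39 lost regions. Few lay near a gene end, 8.02% of the kept, 17.9% of the gained and 17.9% of the lost. All regions of these classes outside wild type had 25.1%, 40.0% and 41.0%. The repeat list held 34.0%, 15% and 12.8% of them, near the 29.9%, 14.8% and 17.9% of all outside wild type. At least 1 induced full-length Zelda list (500 to 1500 µM) held 83.3%, 73.2% and 76.9%. The 500 µM list alone held 58.0%, 49.6% and 46.2%, against 91.4%, 77.4% and 84.6% of all outside wild type. Kept regions of this set lay by CG40006, CG46302, Atf6, CG12769, jing, pwn, kirre and AGO3, gained ones by Cht10, dlg1, mGluR, Ptp10D, Nipped-B, bi, CG17493 and TpnC41C, and lost ones by blo, side-IV, CG42258, Traf-like, nxf4, prage, CG42680 and Mef2. Mef2, the muscle transcription factor, had a fold of 2.89, and bi, the T-box gene optomotor-blind, 3.81.

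Groups of genes were described by whether a summit lay in the gene or within 2000 bp of it. Of 13922 protein-coding genes, 30.6% had a summit at 100 µM and 40.0% at 400 µM, and 27.0% had a kept, 20.2% a gained and 6.67% a lost summit. The wild-type list gave 50.9%, the uninduced full-length line 53.3% and the repeat 11.8%. A gene can have summits of more than 1 class, and where a pair of folds is given for a gene of these lists, it is the highest at that gene at each dose and need not come from the same region. Long genes collect more summits, so each list below is set beside genes at least as long as its median gene. A summit at 100 µM only was found at 433 genes (3.11%) and at 400 µM only at 1733 (12.4%).

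Developmental regulators known as Polycomb targets held the lost summits most often among the 12 lists. These genes (the Hox genes and other selector genes) are kept silent in cells that do not use them. Of the 38 genes, 28 had a summit at 100 µM and 20 at 400 µM, and 21 (55.3%) had a lost one, against 19.3% of the 1320 genes at least as long as the list's median of 15532.5 bp. Kept summits were found at 19 genes (50%) and gained summits at 7 (18.4%), where genes as long had 50.5% and 31.1%. A summit of any class was at 73.7% of the list at 100 µM and 52.6% at 400 µM, where genes as long had 56.4% and 59.6%. Of the 68 Zld-DBD summits at these genes at 100 µM, 27 were lost (39.7%, 28.0 to 52.3%), against 17.0% of all 100 µM regions.

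These lost regions were strong in wild-type cells and, like lost regions in general, weak in the domain list. Of the 27, 23 lay inside wild type, against 73.9% of all lost regions. Their wild-type folds ran from 9.53 to 40.5 with a median of 24.4, against a median of 8.21 for all lost regions inside wild type. The 100 µM folds of the 27 had a median of 2.19, near the 2.13 of all lost regions. The region at eyegone (eyg), an eye and thorax selector gene (chr3L:12467987-12468412), had folds of 2.20 at 100 µM and 40.5 in wild type. At Ultrabithorax (Ubx), the Hox gene of the third thoracic segment (chr3R:16702695-16703329), they were 2.00 and 36.3. At Antennapedia (Antp) the lost region had 1.98 and 35.3, at Abdominal-B (Abd-B) the higher of its lost regions in wild type had 2.40 and 29.1, and at the posterior segment gene engrailed (en) 2.04 and 31.3. Caudal (cad) had 2.27 and 30.9, caupolican (caup) of the Iroquois complex 2.06 and 28.1, and Deformed (Dfd), a head Hox gene, 2.33 and 23.8.

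The repeat could show few such losses, since it had a summit at 9 of the 38 genes (23.7%, against 27.6% of genes as long). With the repeat as the 100 µM list, 1 gene had a lost summit, against 2.85% of all genes, and 1 of the 27 lost regions, at dac, was in the repeat list, against 8.04% of all lost regions. With only regions at or above each list's median fold, 5 genes had one, against 6.23% of all genes. The uninduced full-length line held 4 of the 27, against 55.2% of all lost regions and 46.5% of those inside wild type. The loss at these genes thus lay mostly in the weaker regions of 1 list. Whether it follows the dose or that list was not tested.

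Summits at both doses were present at 19 of the 38 genes. Cut (ct), a homeobox gene of sense organs, had 5.41 at 100 µM and 4.69 at 400 µM. Antp, beside its lost region, had a highest fold of 3.87 at 100 µM and 4.09 at 400 µM. Ubx had 3.75 and 3.93, eyeless (ey) 3.32 and 3.82 and teashirt (tsh) 3.44 and 3.65. Among these genes, 9 had a summit at 100 µM only and hedgehog (hh) had one at 400 µM only, the reverse of the order over all genes given above.

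**Figure D5:**
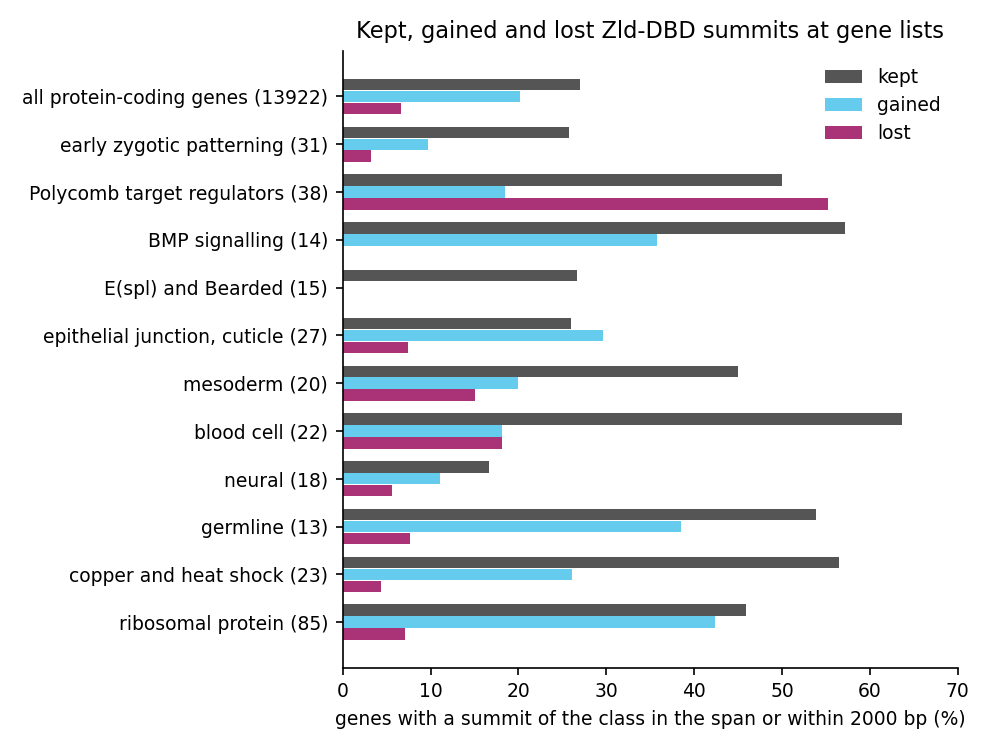
Share of genes of each list (number of genes in brackets) with a kept, gained or lost Zld-DBD summit in the gene or within 2000 bp (x, percent), with all protein-coding genes at the top. Lost summits occur at 55.3% of Polycomb targets and gained summits at 42.4% of ribosomal protein genes, against 6.67% and 20.2% of all genes.

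Ribosomal protein genes (the RpL and RpS series), among the most highly transcribed genes of a growing cell, held the gained summits most often among the 12 lists. This list was added after the values had been seen. Of its 85 genes, 43 had a summit at 100 µM and 63 at 400 µM, with 22 at 400 µM only and 2 at 100 µM only, the same order as over all genes. Gained summits were at 36 genes (42.4%), against 23.6% of genes at least as long as the list's median of 1333 bp. Kept summits were at 39 (45.9%) and lost summits at 6 (7.06%), where genes as long had 32.4% and 8.25%.

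Gained regions at ribosomal protein genes lay at gene ends in 39 of 41 cases, against 59.9% of all gained regions. The 41 were chosen by summits in or within 2000 bp of these short genes. Their nearness to a gene end is therefore partly set by that choice. The uninduced full-length list held 39 of the 41, against 68.9%, and 33 lay inside wild type, against 59.2%. In the repeat list were 6 of them, near the 11.6% of all gained regions. RpS15Aa (chrX:13338110-13338394) had a fold of 3.92 at 400 µM and 4.38 in the uninduced line. RpS6 had 3.16, RpL7A 3.16, RpS16 3.06, RpS5a 2.90 and RpL27A 2.67, and RpS5a and RpL27A were in the repeat list at 3.35 and 2.57. Wild type had a summit at 81 of the 85 genes (95.3%), against 58.8% of genes as long.

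Early zygotic patterning genes, many of them Zelda targets in the embryo, had shares of summits near or below those of all genes. Of 31 genes, 9 had a summit at 100 µM and 8 at 400 µM, where genes as long had 44.7% and 54.2%. Kept summits were at 8, gained at 3 and lost at 1, where genes as long had 39.8%, 27.1% and 11.1%. Wild type had a summit at 17 (54.8%), against 66.6% of genes as long. Short gastrulation (sog), the BMP antagonist, had 4.05 at 100 µM and 3.61 at 400 µM. Sry-alpha, a gene of cellularization, had 3.79 and 2.28, naked cuticle (nkd) 3.41 and 2.24, brinker (brk), a repressor of BMP targets, 3.25 and 1.98, buttonhead (btd) 2.86 and 2.02, and hairy (hry) 2.72 and 2.36. The head gap gene oc had the lost summit, with folds of 2.28 at 100 µM and 39.9 in wild type.

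Of 14 BMP signalling genes, 8 had a kept, 5 a gained and 0 a lost summit, where genes as long had 45.7%, 29.5% and 14.6%. On so few genes these counts are near the general shares. The transcription factor gene Mad had folds of 3.80 at 100 µM and 3.08 at 400 µM, the inhibitor Dad 3.73 and 2.83, the receptor genes tkv 3.69 and 3.45 and sax 3.67 and 2.73. Tolloid (tld), the protease that cuts sog protein, had a summit at 400 µM only, with a fold of 1.27. The 15 Enhancer of split and Bearded genes, targets of Notch, had 4 kept and no gained or lost summits, where genes as long had 30.4%, 22.3% and 7.57%, and in the cell death cluster hid, 1 of 4 genes, was kept at 3.92 and 3.15.

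Blood cell genes, which S2 cells are known for, had kept summits at 14 of 22 genes, gained at 4 and lost at 4, where genes as long had 46.5%, 29.9% and 15.7%. Hemolectin (Hml) had 4.24 at 100 µM and 4.86 at 400 µM, and peroxidasin (Pxn) 4.16 and 3.33. The 23 copper and heat-shock genes had 13 kept, 6 gained and 1 lost, where genes as long had 36.3%, 25.8% and 9.62%, with Hsp70Aa at 6.13 and 4.38, Hsp70Ab at 5.75 and 4.72, Hsp68 at 4.91 and 2.30 and the copper importer Ctr1A at 4.38 and 4.44. Metallothionein MtnA, which binds copper and whose promoter responds to it, had 2.28 at 100 µM, 1.33 at 400 µM and 11.3 in wild type at 1000 µM, and MtnB to MtnF had no summit in these lists.

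Of 27 genes of epithelial junctions and cuticle, 8 had a summit at 100 µM and 13 at 400 µM, where genes as long had 55.1% and 59.0%. Kept summits were at 7, gained at 8 and lost at 2, where genes as long had 49.0%, 29.3% and 17.9%, so the gained share was near the general one. Stardust (sdt), an apical polarity scaffold, had a fold of 3.39 at 400 µM only, par-6 of the same polarity system 2.73, Tsf2 2.20 and Contactin (Cont) 2.08. Mesoderm genes had 9 of 20 kept, 4 gained and 3 lost, where genes as long had 50.6%, 32% and 21.4%. Neural genes had 3 of 18 kept (16.7%), 2 gained and 1 lost, fewer than the 50.7%, 32.2% and 21.8% of genes as long. Germline genes had 7 of 13 kept, 5 gained and 1 lost, where genes as long had 45.4%, 29.5% and 14.3%, with the piRNA factors AGO3 at 5.36 and 4.95 and piwi at 4.20 and 4.20, the helicase vas at 3.10 and 2.91, and a lost summit of 2.81 at bag of marbles (bam).

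The exchange between doses can be set beside those of other constructs, at doses that differ. From 20 to 80 µM the Grainy head DNA-binding domain, precipitated with anti-Grh, went from 6928 to 5535 regions, of which 95.0% (94.4 to 95.5%) were kept and 29.2% of the lower list was lost. From 500 to 1500 µM full-length Zelda went from 8988 to 9615 regions, with 74.0% kept and 19.1% lost. In these pairs gained regions lay near a gene end less often than kept ones, 34.5% against 50.3% for the Grainy head domain and 32.8% against 59.3% for full-length Zelda. For the Zelda domain the order was the opposite, 59.9% (57.5 to 62.2%) of all gained against 36.8% (35.3 to 38.4%) of all kept regions. With the repeat as the 100 µM list that order was not seen, at 43.8% of gained and 44.9% of kept regions. The gained class was then most of the 400 µM list (4398 of 5461 regions), which itself had 44.0% near a gene end. The swap is therefore a weak check, and whether the difference from the other pairs follows the 1 list at 100 µM was not tested.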

How the data were processed

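The peak lists were used as deposited. Per the submitters' processing notes, Bowtie2 2.4.4, MACS2 2.2, deepTools 3.5.1 and the dm6 build were used; their roles, settings and the filter on the lists are not given in the sources used here, and read depth is unknown. The authors deposited for each summit a fold enrichment and the −log10 of its p-value. Per the labels each list serves the 2 libraries of a group, so replicates could not be compared.

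Summits with the same start and end were joined into 1 region with the highest-fold summit (Python 3.11.15, numpy 2.4.6, pandas 2.3.3, scipy 1.17.1, matplotlib 3.10.9). Local background was solved from fold and −log10 p by a Poisson tail, tested on simulated data. Genes came from RefSeq's Release 6 table, by symbol, with 13922 protein-coding genes; it gives no strand or exons, so distance runs to either gene end. The nos gene of the germline list found no match. No genome sequence was used, so motifs were not searched and no sequence is shown.

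Named regions are the 12 highest by fold kept and gained outside wild type, the 8 lost, and the 5 highest of each class inside (1 kept region is not reported here), named by the gene holding the summit (the shortest) or nearest; list genes are examples by fold, to 6 a list, with lost regions at Polycomb targets and gained regions at ribosomal protein genes, and the leading regions outside both lists, chosen after their values were seen. The members and gene lists were chosen with earlier results of these data known. Alternatives changed the overlap rule, fold cut, list length, the 100 µM list and the wild-type list.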

Additional observations from a re-analysis of the deposited data

How the results depend on the processing

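No paired analysis was possible because each list pools its 2 libraries and the results come from no test; for the same reason no replicate could be left out. Every one of the 34 alternative values moved beyond the interval of its share; the cause was not tested. In each list below the order of settings is an overlap of 50% of both regions, highest summits within 250 bp, domain regions at or above their list's median fold, the longer list shortened to the shorter by fold, and the repeat 100 µM list. The share of 400 µM regions kept was 59.6%, 62.6%, 56.6%, 66.5% and 19.5%. The share of 100 µM regions lost was 25.8%, 22.3%, 29.2%, 34.0% and 25.4%. The share outside wild type was 59.0%, 47.9%, 46.2%, 31.6% and 35.8% of kept regions, 79.4%, 60.8%, 54.6%, 46.1% and 28.3% of gained regions, and 58.6%, 42.0%, 21.2%, 13.5% and 66.8% of lost regions. With the 0 µM full-length list added to wild type these 3 shares were 4.31%, 16.5% and 5.23%. With all 4 wild-type lists they were 20.4%, 37.7% and 20.9%. Those 4 are anti-Zld at 1000 µM, anti-Grh at 100 µM, and anti-Twi and anti-HA at 40 µM copper. With wild-type regions at or above their median fold the shares were 55.1%, 77.5% and 38.6%. The gained share exceeded the kept share in these settings except with the repeat list. Lost and gained calls near a list's lower limit depend on depth, which the lists do not give.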
